A study of Homo sapiens with 9 samples.

Results

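RAB17, RAB25, AP1S3 and MYO5B encode parts of the machinery that moves vesicles in epithelial cells, and binding of the transcription factor ZEB1 around their start sites is described here from chromatin immunoprecipitation with sequencing (ChIP-seq). The members are peaks of the deposited lists with a summit, the base of highest signal, within 20 kb of the start site of 1 of these 4 genes. They number 18 of 47426 peaks in 5 lists, and 10 of 15672 in the 4 ZEB1 lists. The genes were chosen by where ZEB1 peaks of these same lists lie, how strong they are and which lists lack them, so presence, absence and strength are given as a description without a test. RAB25 was kept although it has no such ZEB1 peak.

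ZEB1 was mapped in a delta-Repeat clone and a WT clone of MiaPaCa2, in unmodified RKO cells and in unmodified MiaPaCa2 cells, and CTCF in unmodified MiaPaCa2 cells, with 1 sample for each. MiaPaCa2 is a pancreatic ductal adenocarcinoma line and RKO a colon carcinoma line. Both clones came from MiaPaCa2 cells electroporated with plasmids for Cas9 nickase and isolated by dilution, and for the delta-Repeat clone the plasmids also carried different pairs of guide RNAs aimed at the DNA repeats that precede MIR200A and MIR200B. Each clone is a single isolate, so a difference between them cannot be told apart from variation between clones. Both clones shared an antibody lot, whereas unmodified MiaPaCa2 and RKO cells each had their own. The lists held 2160 peaks in the delta-Repeat clone, 1515 in the WT clone, 7193 in RKO and 4804 in MiaPaCa2 for ZEB1, and 31754 for CTCF. Read depth is unknown, so a peak called absent is one missing from a list, and its signal may lie under the authors' threshold. The lists carry no expression values, so whether any of the 4 genes was transcribed was not measured.

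RAB17 and RAB25 are small GTPases of epithelial cells that act on recycling endosomes near the apical surface, and RAB25 belongs to the RAB11 group. MYO5B, the motor protein myosin Vb, carries RAB11-positive recycling vesicles along actin. AP1S3 is a small sigma subunit of AP-1, a clathrin adaptor complex that sorts cargo at the trans-Golgi network and endosomes. ZEB1 is a zinc-finger repressor of epithelial genes that binds E-boxes of the form CACCTG, whose reverse complement is CAGGTG, and CTCF is a zinc-finger protein of insulators and chromatin loop borders.

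ZEB1 summits lay within 1 kb of the start sites of 3 of these genes and not of RAB25. The promoter sequences of all 4 genes are shown for this reason, and each sequence holds the ZEB1 E-box. They run 5′ to 3′ on the strand of the gene, from 250 bases before to 50 after the RefSeq start in build GRCh38.p14, with CACCTG and CAGGTG in capitals. All 4 genes were matched by symbol. RAB17 is at chr2:237590685-237590984 (minus strand), AP1S3 at chr2:223837533-223837832 (minus strand), MYO5B at chr18:50195098-50195397 (minus strand) and RAB25 at chr1:156060910-156061209 (plus strand).
RAB17: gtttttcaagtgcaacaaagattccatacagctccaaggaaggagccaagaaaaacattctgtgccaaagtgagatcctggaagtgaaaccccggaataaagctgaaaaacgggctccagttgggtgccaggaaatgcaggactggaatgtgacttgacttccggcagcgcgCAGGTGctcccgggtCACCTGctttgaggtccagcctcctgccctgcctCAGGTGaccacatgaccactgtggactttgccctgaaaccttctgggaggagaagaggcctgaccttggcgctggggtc
AP1S3: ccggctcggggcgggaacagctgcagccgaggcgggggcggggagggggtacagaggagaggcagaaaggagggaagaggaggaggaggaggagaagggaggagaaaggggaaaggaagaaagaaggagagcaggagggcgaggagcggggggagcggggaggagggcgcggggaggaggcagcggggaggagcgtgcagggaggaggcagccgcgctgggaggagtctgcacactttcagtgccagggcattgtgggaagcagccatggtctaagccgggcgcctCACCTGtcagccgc
MYO5B: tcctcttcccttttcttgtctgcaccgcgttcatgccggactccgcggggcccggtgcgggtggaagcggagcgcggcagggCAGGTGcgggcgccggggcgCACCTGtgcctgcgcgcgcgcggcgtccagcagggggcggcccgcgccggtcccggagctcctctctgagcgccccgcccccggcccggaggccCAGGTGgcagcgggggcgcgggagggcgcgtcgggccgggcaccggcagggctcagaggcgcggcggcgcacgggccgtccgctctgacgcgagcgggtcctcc
RAB25: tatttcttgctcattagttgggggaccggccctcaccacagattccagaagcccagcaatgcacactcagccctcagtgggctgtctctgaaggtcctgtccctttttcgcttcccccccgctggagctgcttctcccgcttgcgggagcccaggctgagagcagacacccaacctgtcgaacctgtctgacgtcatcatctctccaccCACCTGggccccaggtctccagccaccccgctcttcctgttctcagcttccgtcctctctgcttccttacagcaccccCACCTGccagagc

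The RAB17 promoter held 3 E-boxes of this form, beginning at positions −78, −63 and −29 from the start site, with the middle one as CACCTG. The first 2 begin 15 bases apart. MYO5B also held 3, at −168, −148 and −54, and RAB25 held 2 CACCTG, at −41 and 37. AP1S3 held a single CACCTG at 36, past the start. Of 35116 promoters of the same length, 20.6% held at least 1 match, 3.49% at least 2 and 0.635% at least 3. Neither strand of the 4 sequences held CACGTG, another E-box, which 7.26% of all promoters held. A match is a description of letters, not a bound site. The GC content was 54.7% for RAB17, 68.7% for AP1S3, 80.0% for MYO5B and 60.7% for RAB25, against a median of 58.7%. The peaks below are on hg19, and the RefSeq starts of GRCh38.p14 were not placed on that build, so the distance from a motif to a summit is not given. Measured from the hg19 start sites used below, no ZEB1 summit fell between 250 bases before and 50 after a start. The MYO5B peaks did not reach this span at all. The E-boxes shown were thus not found to lie under a ZEB1 summit, and their numbers are not set against peak presence.

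Within 20 kb of the 4 start sites the ZEB1 lists held 3 peaks in the delta-Repeat clone, 2 in the WT clone, 1 in RKO and 4 in MiaPaCa2, and the CTCF list held 8. Of the 10 ZEB1 peaks, 9 had a summit within 1 kb of a start site and are called promoter peaks. The only exception was a weak MiaPaCa2 peak 6345 bp into RAB17. Distances are from the hg19 start sites of the rule, negative before the start and positive into the gene. These are 238499700 on chromosome 2 for RAB17, 224702300 on chromosome 2 for AP1S3, 47721400 on chromosome 18 for MYO5B and 156030966 on chromosome 1 for RAB25. The rule gives 3 of them rounded to 100 bp, so distances of that size are uncertain. These starts were not checked against the RefSeq starts of the promoter sequences, and the 2 may differ by more than the rounding.

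**Figure D1:**
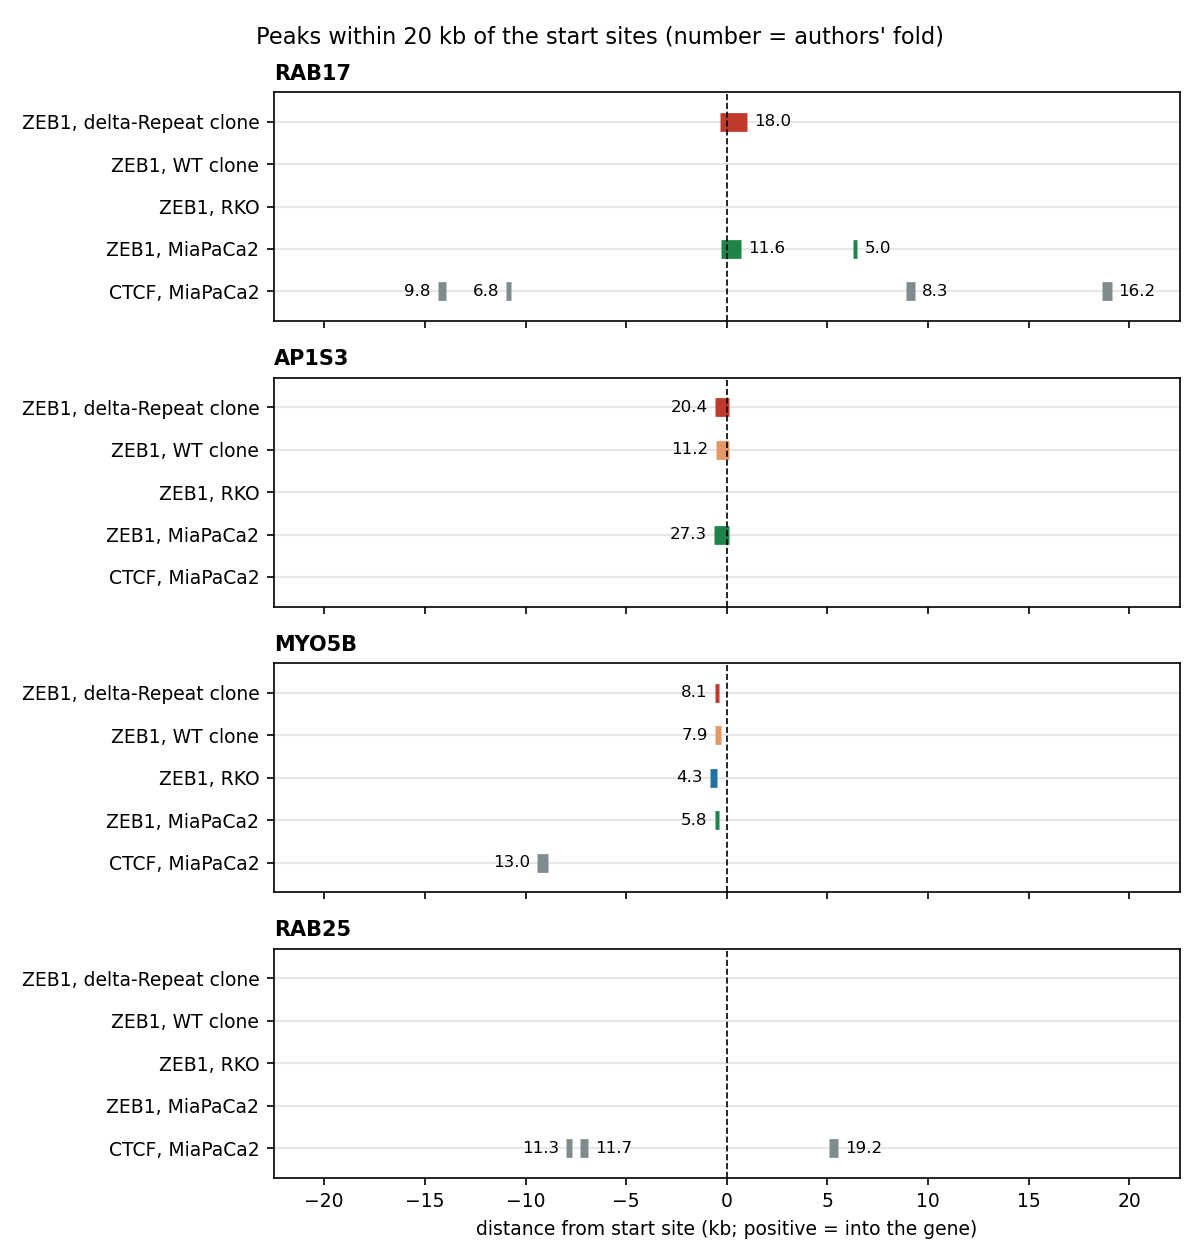
Peaks of the 5 lists within 20 kb of each start site, with distance in kb on the horizontal axis, 1 row per list and the authors' fold enrichment beside each bar. ZEB1 bars gather at the start sites of RAB17, AP1S3 and MYO5B and are missing around RAB25, where only the 3 CTCF bars stand.

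RAB17 carried a ZEB1 promoter peak in the delta-Repeat clone and in unmodified MiaPaCa2 cells, and none in the WT clone or in RKO. The delta-Repeat clone peak lay on chromosome 2 from 238498706 to 238500028 with an 18.0-fold enrichment over the peak caller's background and 48.5 as its −log10 q. By fold it ranked 138 of 2160. The MiaPaCa2 peak lay from 238498984 to 238499970 with 11.6-fold enrichment, 23.4 as its −log10 q and rank 667 of 4804. Both covered the start site, with summits at 403 bp in the delta-Repeat clone and 451 bp in MiaPaCa2. These summits were 48 bp apart, where the median over 1871 overlapping peaks of both lists was 59 bp.

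The RAB17 peaks were wide for their lists. The delta-Repeat clone peak spanned 1323 bp, and 99.2% of that list was narrower. The MiaPaCa2 peak spanned 987 bp, with 95.3% of its list narrower, and lay wholly within the extent of the delta-Repeat clone peak. MiaPaCa2 cells had a second peak inside the gene, from 238493210 to 238493410, with 4.996-fold enrichment. No other ZEB1 list held it.

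AP1S3 carried a promoter peak in all 3 lists from MiaPaCa2 cells and none in RKO. It lay on chromosome 2 from 224702168 to 224702870 in the delta-Repeat clone, from 224702170 to 224702856 in the WT clone and from 224702206 to 224702919 in MiaPaCa2. The fold was 20.4 in the delta-Repeat clone, 11.2 in the WT clone and 27.3 in MiaPaCa2. The −log10 q was 56.9 in the delta-Repeat clone, 21.1 in the WT clone and 83.1 in MiaPaCa2. The ranks were 96 of 2160 in the delta-Repeat clone, 309 of 1515 in the WT clone and 107 of 4804 in MiaPaCa2. In all 3 lists AP1S3 had the strongest peak of the 4 genes. Widths were close, at 703 bp in the delta-Repeat clone, 687 bp in the WT clone and 714 bp in MiaPaCa2. Every summit lay before the start, at −270 bp in the delta-Repeat clone, −361 bp in the WT clone and −301 bp in MiaPaCa2. The summits of the 2 clones were 91 bp apart, farther than 71.9% of the 1108 overlapping peaks of these lists. That of the delta-Repeat clone was 31 bp from the MiaPaCa2 summit, and that of the WT clone 60 bp.

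MYO5B was the only one of the 4 genes with a promoter peak in all 4 ZEB1 lists as deposited. With a fold of at least 5 and a −log10 q of at least 10, or with lists cut to equal lengths, its peak was left in the clones and not in RKO or MiaPaCa2. The peaks spanned 217 bp in the delta-Repeat clone, 293 bp in the WT clone, 358 bp in RKO and 215 bp in MiaPaCa2. They were narrow for the lists of the delta-Repeat clone (13.1% narrower) and MiaPaCa2 (10.9% narrower), less so for the WT clone (38.1%), and of middling width in RKO (54.9%). On chromosome 18 they ran from 47721785 to 47722001 in the delta-Repeat clone, from 47721705 to 47721997 in the WT clone, from 47721890 to 47722247 in RKO and from 47721788 to 47722002 in MiaPaCa2. The fold was 8.07 in the delta-Repeat clone (rank 782 of 2160), 7.90 in the WT clone (rank 668 of 1515), 4.25 in RKO (rank 6597 of 7193) and 5.80 in MiaPaCa2 (rank 3107 of 4804). The −log10 q was 11.0 in the delta-Repeat clone, 10.2 in the WT clone, 2.97 in RKO and 5.60 in MiaPaCa2. None of these peaks reached the start site, which their nearest edges missed by more than 300 bp.

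At MYO5B the RKO peak stood apart in position as well. Its summit lay at −702 bp, against −424 bp in the delta-Repeat clone, −452 bp in the WT clone and −424 bp in MiaPaCa2. It shared 113 bp with the MiaPaCa2 peak, and the 278 bp between their summits exceeded the distance in 91.4% of the 2810 overlapping RKO peaks. The lowest −log10 q of the RKO list was 2.09, so this peak lay close to its lower end. Summits of the delta-Repeat clone and MiaPaCa2 fell on the same base.

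**Figure D2:**
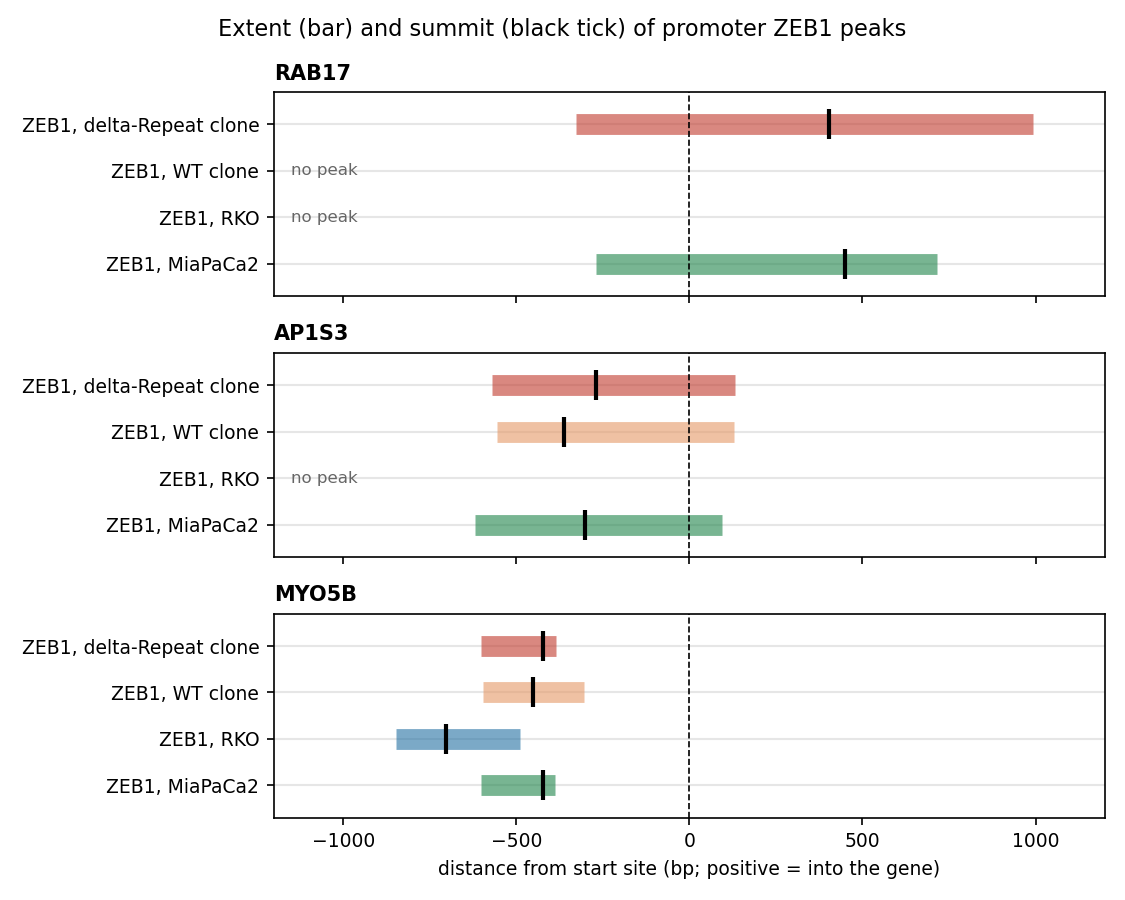
Extent (bar) and summit (black tick) of each promoter peak, with distance from the start site in bp on the horizontal axis and 1 row per ZEB1 list. RAB17 bars lie mostly inside the gene, AP1S3 bars mostly before it, and of the MYO5B bars that of RKO lies farthest out, with its summit at −702 bp.

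RAB25 had no ZEB1 peak within 20 kb in any list. The nearest summits lay 221 kb away in the delta-Repeat clone, 442 kb in the WT clone, 29938 bp in RKO and 29969 bp in MiaPaCa2, all on the side of the gene. The RKO peak, on chromosome 1 from 156060784 to 156061029, was enriched 9.90-fold, with 16.8 as its −log10 q. The MiaPaCa2 peak at the same place was enriched 5.79-fold, with 11.4 as its −log10 q, and both overlapped a CTCF peak of fold 7.70. Of the CTCF summits, the nearest outside the 20 kb limit lay at −22657 bp from AP1S3, −23957 bp from MYO5B and 29698 bp from RAB25, and the RKO and MiaPaCa2 peaks of RAB25 were the nearest ZEB1 peaks outside it. The farthest member inside it was a CTCF summit at 18855 bp from RAB17.

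Within each list, the order of the promoter peaks by fold was AP1S3, RAB17 and MYO5B, leaving out the genes without a peak. In the delta-Repeat clone 95.4% of the list had a lower fold than the AP1S3 peak, 93.6% than that of RAB17 and 63.8% than that of MYO5B. The WT clone gave 79.4% for AP1S3 and 55.8% for MYO5B, and RKO 8.27% for MYO5B. MiaPaCa2 gave 97.7% for AP1S3, 86.1% for RAB17 and 35.3% for MYO5B. These positions describe each list by itself.

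**Figure D3:**
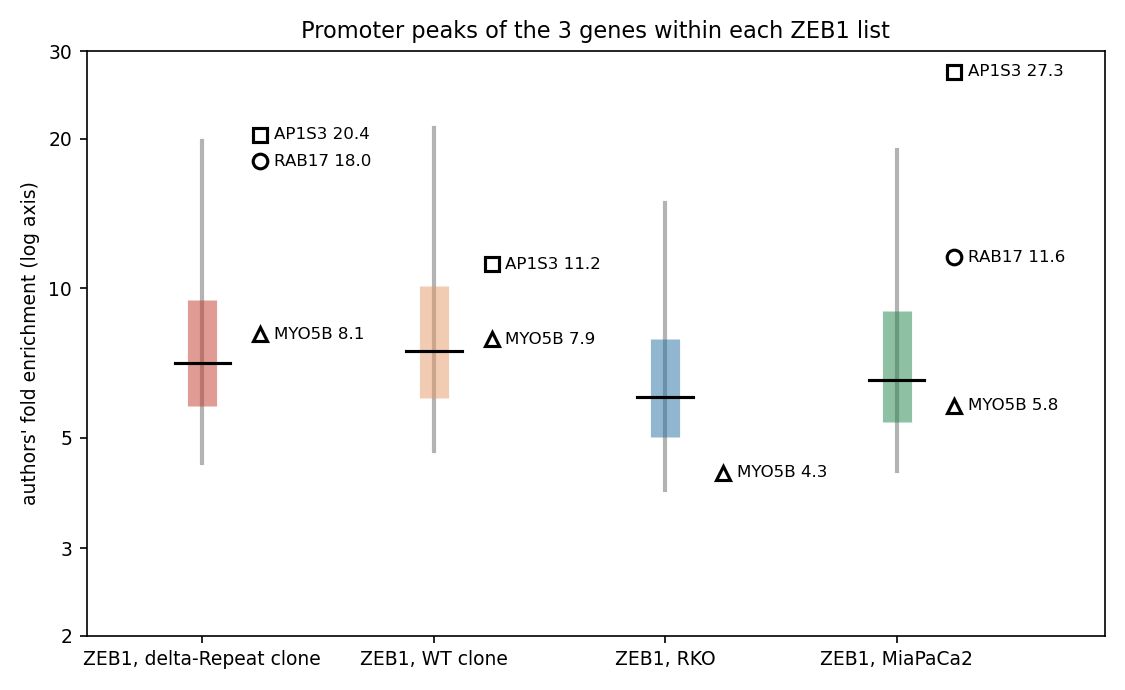
Authors' fold enrichment on a log axis for each ZEB1 list, with the middle 50% of all peaks as a coloured bar, the range from the 5th to the 95th percentile as a grey line, the median as a black line and the promoter peaks as symbols. AP1S3 lies above the middle range wherever it was found, and MYO5B in RKO lies below it.

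Ranks in lists of different lengths cannot be compared, so AP1S3 and MYO5B were also ranked by fold among the 1075 places found in all 3 lists from MiaPaCa2 cells. AP1S3 ranked 94 in the delta-Repeat clone, 296 in the WT clone and 106 in MiaPaCa2. The 202 places between the clones were more than the median of 149, and 60.4% of places differed by less. MYO5B ranked 644 in the delta-Repeat clone, 597 in the WT clone and 1050 in MiaPaCa2. Its clone ranks differed by 47, less than most, but from its MiaPaCa2 rank the delta-Repeat clone differed by 406 places (89.8% of the 1075 differed by less) and the WT clone by 453 (94.1% by less), both toward a stronger rank in the clone. Rank 1050 of 1075 is near the weak end, so a large shift from it could only go toward a stronger rank. The shares over all 1075 places do not allow for this, and neither size nor direction is read as a trait of MYO5B. With 1 sample each, no spread between cultures is known for any of these ranks.

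Comparing the clones sets ZEB1 peaks after editing at the miR-200 repeats beside those of the control clone. Of the 3 promoter peaks in the delta-Repeat clone, 2 were in the WT clone list, where 51.3% of all delta-Repeat clone peaks were found. The missing peak was that of RAB17, and its absence was among the values that chose the gene. Since it was chosen for its strength and its absence, the shares at its rank are a description only. Of the 100 delta-Repeat clone peaks next to RAB17 in rank, 99 were in the WT clone list, and of the 100 next to MYO5B, 64 were.

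Around RAB17 the WT clone list held some of the other MiaPaCa2 ZEB1 peaks and lacked others. Of the 10 MiaPaCa2 peaks within 1 Mb of the start site, 4 (40.0%) were in the delta-Repeat clone list and 5 (50.0%) in the WT clone list. The 2 found in the WT clone alone lay in 1 region of joined overlapping peaks, from 238342211 to 238343486. Counted by such regions, each clone list held 4 of the 9 with a MiaPaCa2 peak. The order of the clones depended on the settings: with summits within 100 bp counted as found the delta-Repeat clone had 40% and the WT clone 30%, and within 5 Mb the delta-Repeat clone had 55.8% and the WT clone 51.9%. Of all MiaPaCa2 peaks, the delta-Repeat clone list had 38.0% and the WT clone list 29.3%. A region 153 kb from the start, on the side of the gene, had folds of 13.2 in the delta-Repeat clone, 29.8 in the WT clone, 5.68 in RKO and 27.3 in MiaPaCa2. Another, at −150 kb, had folds of 8.48 in the delta-Repeat clone, 7.70 in the WT clone, 8.14 in RKO and 5.58 in MiaPaCa2. The nearest WT clone summit lay 104 kb from the RAB17 start, with a fold of 6.77. Within 1 Mb of AP1S3 the delta-Repeat clone list held 2 and the WT clone list 1 of 3 MiaPaCa2 peaks. Near MYO5B the delta-Repeat clone list held 4 of 6 and the WT clone list 2, and near RAB25 the delta-Repeat clone list held 3 of 11 and the WT clone list 2.

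**Figure D4:**
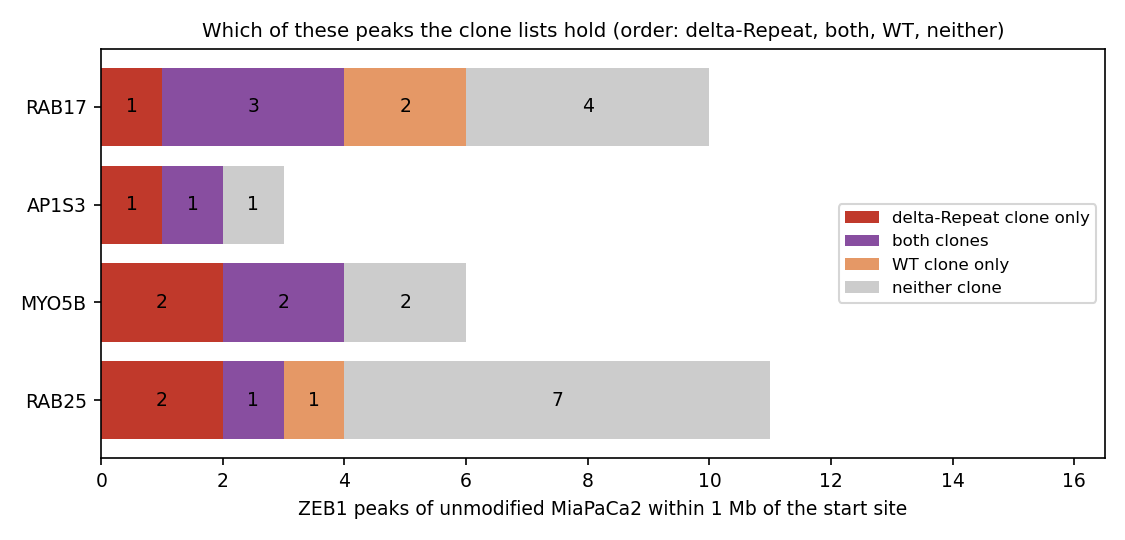
Number of unmodified MiaPaCa2 ZEB1 peaks within 1 Mb of each start site, split by whether a peak of the delta-Repeat clone, of both clones, of the WT clone or of neither overlaps it. At RAB17 the promoter peak is the 1 found in the delta-Repeat clone alone, and 3 peaks are in both clones. The 2 peaks in the WT clone alone lie in 1 region of joined overlapping peaks.

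The clones were also set beside the unmodified line, whose list is longer. Of the 3 MiaPaCa2 promoter peaks the delta-Repeat clone list held 3, where 38.0% of all MiaPaCa2 peaks were found. The WT clone list held 2, where 29.3% of all were found. Of the 100 MiaPaCa2 peaks next to RAB17 in rank, the delta-Repeat clone shared 85 and the WT clone 74. Of the 100 next to AP1S3, each clone shared 100, and of the 100 next to MYO5B, the delta-Repeat clone shared 25 and the WT clone 12. Presence in these lists was among the values that chose the genes, so these shares are a description only.

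The colon line held fewer of these peaks. Of the 3 delta-Repeat clone promoter peaks 1 was in the RKO list, where 71.1% of that clone's peaks were found, and of the 3 MiaPaCa2 promoter peaks also 1, where 57.4% of all were found. The peak in RKO was that of MYO5B. Among the 100 MiaPaCa2 peaks next to AP1S3 in rank, 98 were in RKO, and among the 100 MiaPaCa2 peaks next to RAB17 in rank, 84 were in RKO. RKO had no ZEB1 peak within 100 kb of RAB17 or AP1S3, and the nearest summits lay 102 kb before RAB17 and 108 kb before AP1S3. Which lists held a peak was among the values that chose the genes, so nothing is read from these shares.

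**Figure D5:**
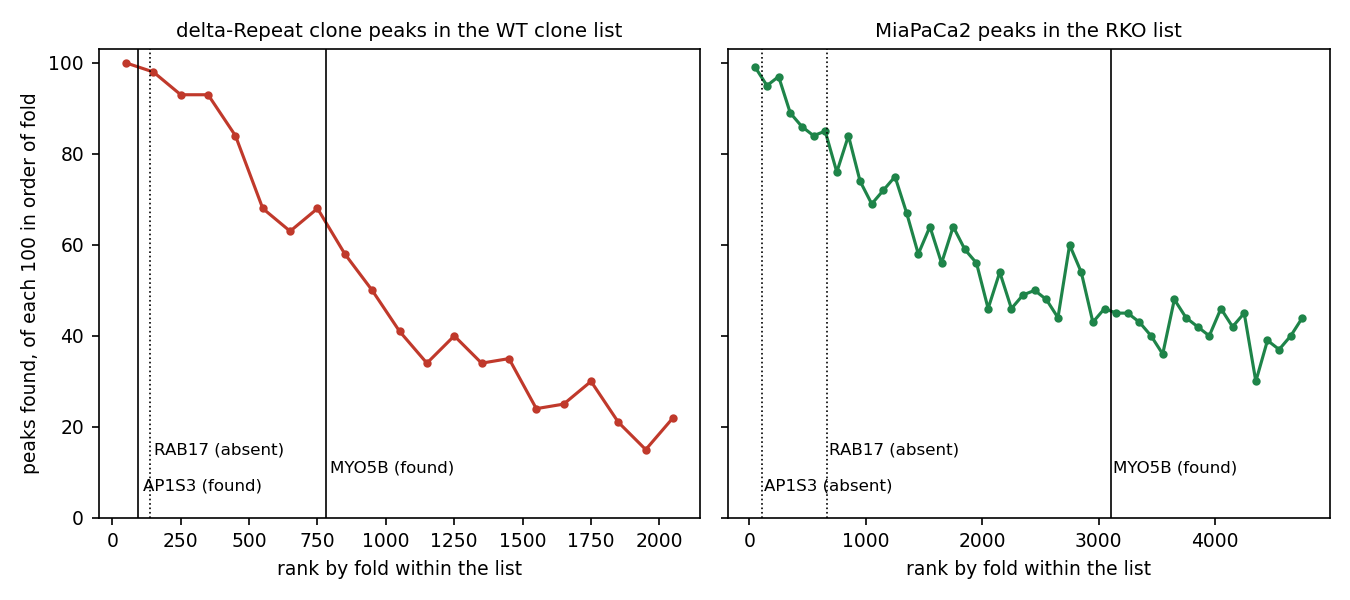
For each 100 peaks in order of fold, the number found in the second list, for delta-Repeat clone peaks in the WT clone (left) and MiaPaCa2 peaks in RKO (right). Vertical lines mark the ranks of the promoter peaks, solid where found and dotted where absent. RAB17 (left) and RAB17 and AP1S3 (right) have dotted lines, and MYO5B a solid line in both panels.

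CTCF summits lay within 20 kb of RAB17, MYO5B and RAB25, and none lay within 5 kb of the 4 start sites. In MiaPaCa2 none of the 3 ZEB1 promoter peaks overlapped a CTCF peak, where 20.2% of all ZEB1 peaks did. With 3 peaks nothing is read from this. From the ZEB1 summit to the nearest CTCF summit it was 8.74 kb at RAB17, 22.4 kb at AP1S3 and 8.70 kb at MYO5B. The median over the ZEB1 list was 6.61 kb. Of that list, 54.7% lay nearer to CTCF than the RAB17 peak, 72.3% than that of AP1S3 and 54.7% than that of MYO5B. RAB17 lay between CTCF peaks at −14084 and −10827 bp and at 9192 and 18855 bp, of which the last had the highest fold, 16.2. RAB25 had CTCF peaks at −7790, −7175 and 5317 bp with folds of 11.3, 11.7 and 19.2, and MYO5B had a single one at −9123 bp with a fold of 13.0. The AP1S3 window held none.

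The surroundings differed between the genes. From the AP1S3 peak the next ZEB1 summit was 201 kb away in the delta-Repeat clone (list median 179 kb), 2955 kb in the WT clone (median 209 kb) and 107 kb in MiaPaCa2 (median 48.4 kb). For the RAB17 peak it was 102 kb away in the delta-Repeat clone and 5.89 kb in MiaPaCa2. The MYO5B peak had its nearest neighbour at 92.8 kb in the delta-Repeat clone and 92.7 kb in the WT clone, below the list medians. In RKO it lay at 92.5 kb (median 15.4 kb) and in MiaPaCa2 at 92.7 kb, above the list medians. This neighbour was stronger than the promoter peak in every list, with folds of 14.8 in the delta-Repeat clone, 11.5 in the WT clone, 16.2 in RKO and 19.1 in MiaPaCa2. It lay before the start site and overlapped a CTCF peak of fold 5.12. Overlapping peaks of the 4 ZEB1 lists were joined into regions, and RAB25 had the most within 1 Mb, 30. Of these, 19 were in RKO alone and 12 overlapped a CTCF peak. RAB17 had 13 such regions, 3 of them in RKO alone and none with CTCF. MYO5B had 10, with 2 in RKO alone and 3 with CTCF, and AP1S3 had 3, with 0 and 0. RKO was the longest ZEB1 list, and 45.6% of the 9306 joined regions of the genome were in RKO alone. The share of all joined regions with CTCF was not computed, so nothing is read from the counts with CTCF. CTCF was mapped in MiaPaCa2 cells alone, and some of the RAB25 regions with CTCF were in RKO alone. The CTCF list also held unlike numbers of peaks within 1 Mb: 90 at RAB25, 45 at RAB17, 33 at MYO5B and 22 at AP1S3.

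Among the 9306 joined ZEB1 regions of the genome, the pattern of RAB17 (delta-Repeat clone and MiaPaCa2) was shared by 270 regions in all (2.90%), that of AP1S3 (all 3 lists from MiaPaCa2 cells) by 159 (1.71%) and that of MYO5B (all 4 lists) by 916 (9.84%). The regions most like each promoter were found by the Euclidean distance between percentile ranks by fold over the 4 lists, with 0 for an absent peak. For RAB17 the nearest was on chromosome 17 from 46549193 to 46549862, with folds of 13.3 in the delta-Repeat clone and 9.63 in MiaPaCa2 and no peak in the WT clone or RKO. The next were on chromosome 2 (8824837 to 8825478), which had a weak WT clone peak of fold 5.01 as well, and on chromosome 13 (95365369 to 95365819). For AP1S3 the nearest was also on chromosome 2, from 235150391 to 235151058, with folds of 21.4 in the delta-Repeat clone, 11.9 in the WT clone and 22.2 in MiaPaCa2. It was followed by regions on chromosome 12 (6484177 to 6485972) and chromosome 16 (58497935 to 58498739). The regions nearest to MYO5B lay on chromosome 5 (76163715 to 76164153), chromosome 17 (34122114 to 34122438) and chromosome 7 (140098291 to 140098592), and of these only the last was in RKO. No gene is given for these regions.

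In the gene order of GRCh38.p14, protein-coding neighbours of RAB17 are PRLH and LRRFIP1, with MLPH, a partner of RAB27A in vesicle transport, beyond PRLH. Those of AP1S3 are SCG2 and WDFY1, those of MYO5B are ACAA2 and CFAP53, and those of RAB25 are LAMTOR2 and MEX3A. Peaks far from a start site were not assigned to any of these genes.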

How the data were processed

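ZEB1 ChIP-seq peak lists of 4 samples and a CTCF list of 1 sample were used, and 4 input samples were not analysed here. Bowtie2 2.2.6, MACS2 2.1.0.20150731 and SAMtools, with hg19 and GRCh37 as builds, are listed per the submitters' processing notes. The control input of each list and any pooling of libraries are not given in the sources used here. Linear ratios to background are the deposited folds of the authors' caller. The deposited −log10 values are p and q of the authors' caller. The deposited score is 10 times the −log10 q and was not used. Folds were used only within a list.

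Members, gene lists and rules were chosen with earlier results of these data known. Start sites are those of the rule, and no hg19 annotation was used here, so other trafficking genes were not placed. Peaks matched at an overlap of at least 1 bp. Named peaks were all members and the 3 most similar ZEB1 regions per gene. The ranks over places common to 3 lists, the joined regions around each gene and the counts of patterns were added after the lists had been seen. Promoters and neighbouring genes come from RefSeq (GRCh38.p14). The overlap code was tested on planted overlaps against bedtools 2.31.1. Other software was scipy 1.17.1, matplotlib 3.10.9 for plots, and pandas 2.3.3 with numpy 2.4.6 under Python 3.11.15. Depth is unknown.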

Additional observations from a re-analysis of the deposited data

How the results depend on the processing

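No paired analysis was possible because no group holds more than 1 sample. Moving the start sites by 500 bp was chosen after seeing the data. A promoter limit of 250 bp left 0 promoter peaks in each ZEB1 list, since all 9 summits lay farther out. With a fold of at least 5 and a −log10 q of at least 10, MYO5B was left in the clones alone: RKO had 0 promoter peaks, and the 20 kb windows held 0 RKO and 2 MiaPaCa2 peaks. Equal list lengths likewise left 0 promoter peaks in RKO and took MYO5B from MiaPaCa2 (2 promoter peaks left), and start sites 500 bp downstream left 0 in RKO. Windows of 50 and 100 kb held 2 and 6 RKO and 14 and 30 CTCF peaks, and one of 5 kb held 0 CTCF peaks. Of the 3 MiaPaCa2 peaks within 500 kb of MYO5B, the delta-Repeat clone had 3 (100%, against 66.7% within 1 Mb) and the WT clone 2 (66.7%, against 33.3%). CANNTG matched 6 times at RAB17 and 2 at AP1S3. The share of the delta-Repeat clone list found in the WT clone was 43.9% with 50% overlap of both peaks, 38.3% with summits within 100 bp, 55.8% with the stricter threshold and 64.3% with equal lengths. The share of the WT clone list found in the delta-Repeat clone was 62.6% with 50% overlap, 54.7% by summits and 64.9% with equal lengths. The share of RKO found in MiaPaCa2 was 28.0% with 50% overlap, 24.7% by summits, 41.7% with the stricter threshold and 49.1% with equal lengths. That of MiaPaCa2 found in RKO was 41.9%, 36.9%, 60.3% and 49.1% under these settings. Fewer peaks or wider windows change counts by construction, and other causes were not tested. Of the percentile ranks, 13 moved and 5 stayed when taken by −log10 q or width. In all, 69 values stayed and 45 moved. A count stayed if it lay within a set factor of its main value. A share or percentile rank stayed if it lay within the exact 95% interval of its main value, which is wide for few peaks. Values that stayed could thus differ, as did the MiaPaCa2 promoter peaks (3 to 2) and the WT clone share near MYO5B (33.3% to 66.7%).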
